A study of Mus musculus with 84 samples.

Results

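Messenger RNA of single mouse neurons was counted, and the 59 neurons whose titles carry the letter P were divided by 1 gene. Of these P cells, 23 had at least 1 count of Fezf2 and 36 had none, among 84 neurons in all. The remaining 25 neurons carry the letter F, and none of them had a Fezf2 count. Pyramidal and fast-spiking neurons are named in the title of the series, but the letters are not spelled out anywhere. Every neuron came from an acute cortical slice of C57/BL6/N mice, with no treatment, and was taken up through a patch-clamp pipette in prefrontal cortex. Its polyadenylated RNA was amplified by the aRNA procedure and sequenced with a stranded kit. Genotype, age and animal are not stated.

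Fezf2 encodes a zinc finger transcription factor of the deep cortical layers. It is required for the subcerebral projection neurons of layer 5, which send axons to brainstem and spinal cord, and it is also made in corticothalamic neurons of layer 6. In the developing cortex it acts upstream of Bcl11b (Ctip2), another factor of subcerebral neurons. In developing neurons it has also been described as inducing the vesicular glutamate transporter Slc17a7 and the guidance receptor Ephb1 and repressing Gad1.

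The 2 sides were chosen by the measured count of Fezf2 itself, so its values only describe the split. The 23 cells held 25912 Fezf2 counts, from 1 to 9549 a cell. Their levels ran from 0.0937 to 1987 CPM (the count of a gene divided by the cell's total and scaled to 1000000), with a median of 32.3 CPM. There is a gap in the counts: 7 cells had 1 or 2 counts, and the next cell had 32. In 6 of those 7 cells the level was at most 1.10 CPM, and in the seventh, P60, 1 count of a total of 22938 made 43.6 CPM. Just outside the split are all cells at 0. In 10 of these 36 cells a level of 3 counts would be above 10 CPM, so a Fezf2 level of a few CPM could have been missed there. A zero therefore does not show that a cell lacked the RNA.

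**Figure D1:**
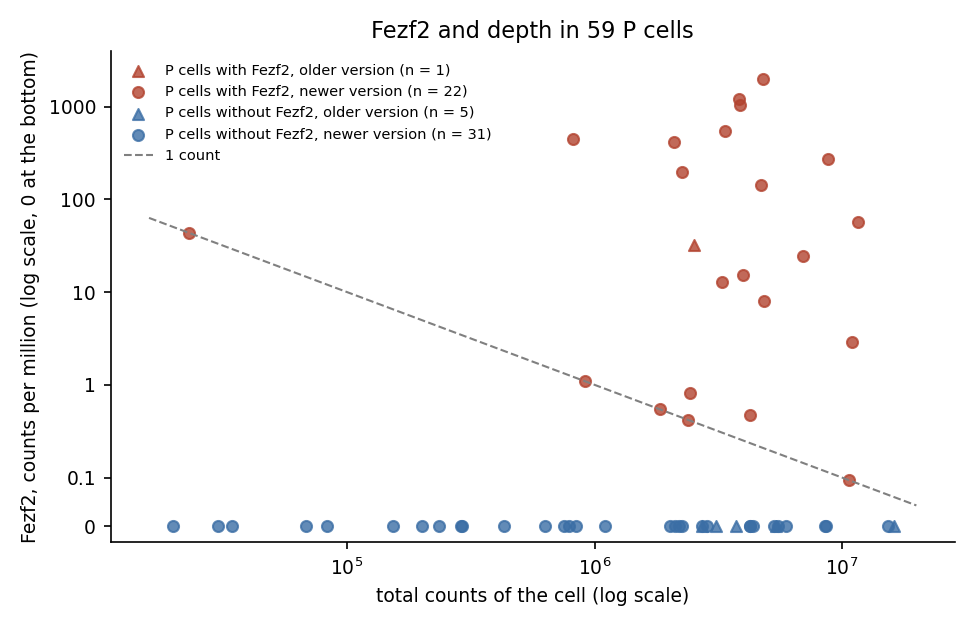
Fezf2 level in CPM (log scale, cells at 0 drawn at the bottom) against the total counts of the cell (log scale) for the 59 P cells, with the level that 1 count makes as a dashed line and the basecaller version as the symbol. The 16 cells with 32 counts or more lie above the line, the 7 cells with 1 or 2 counts lie on or near it, and the cells at 0 reach lower totals.

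Cells with Fezf2 were also deeper and richer libraries. Their totals ran from 22938 to 11610596 with a median of 3833412, against 19802 to 16251918 and 2155612 in cells without it. Totals under 1000000 occurred in 3 of 23 cells with Fezf2 and in 15 of 36 without. For a comparison at equal depth each cell was thinned to 100000 counts, which 22 cells with Fezf2 and 31 without could supply. At that depth the median cell with Fezf2 showed 1803 genes and the median cell without it 1461. The median was 2079 genes in the cells with at least 32 Fezf2 counts and 1324 in those with 1 or 2, a lower value than in cells with none. The ribosomal RNA gene Rn45s took a median of 0.535% of counts with Fezf2 and 1.803% without, and more than 10% in 1 of 23 and 8 of 36 cells. The older of the 2 basecaller versions in the labels covered 1 of 23 and 5 of 36 cells. No label names an animal, so each side is 1 sample, the differences below have no replicate check, and no p-value is given. The part of depth, gene number and Rn45s in these differences was not tested.

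**Figure D2:**
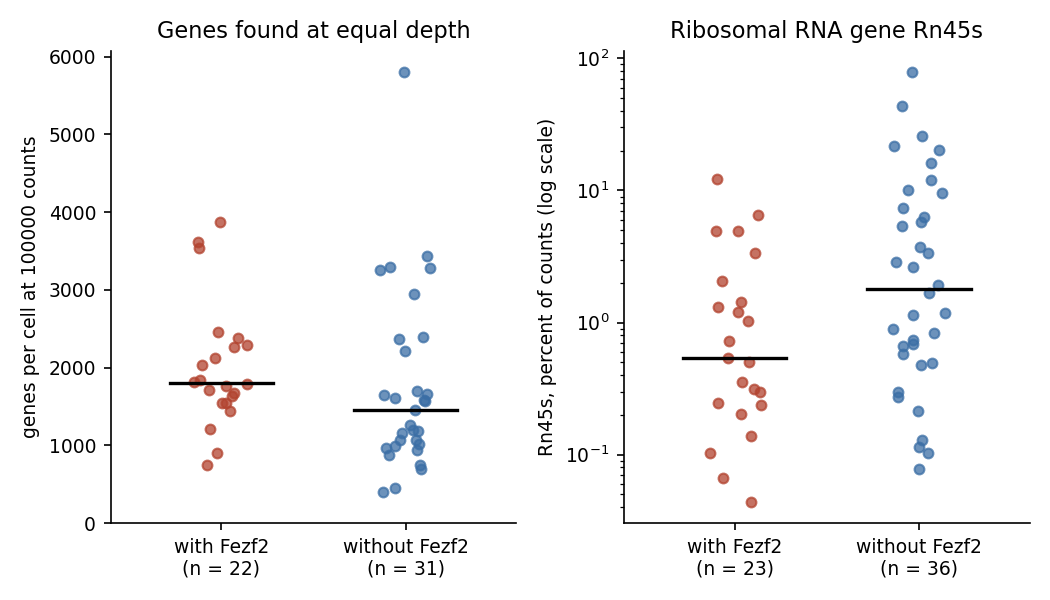
Left, genes per cell at 100000 counts in cells with (n = 22) and without (n = 31) Fezf2. Right, Rn45s as a percent of counts on a log scale (n = 23 and 36). Points are cells and bars are medians, and the sides overlap in both panels.

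The P cells were checked with marker genes of glutamatergic and GABAergic neurons. All 23 cells with Fezf2 had more glutamatergic than GABAergic markers at 10 CPM or above. That level is not at equal depth, and 3 counts lie above it in 1 of 23 and 10 of 36 cells. Among cells without Fezf2 this held for 32 of 36, while P67 had more GABAergic markers and P3, P27 and P31 had equal numbers. The median cell with Fezf2 had 9 of 22 glutamatergic markers at that level, and the median cell without it had 6. Slc17a7, which loads glutamate into vesicles, reached 10 CPM in 14 of 23 and 18 of 36 cells. Its median was 17.3 CPM (0 to 1226) with Fezf2 and 6.67 CPM (0 to 2813) without. Gad1 and Gad2, the GABA-synthesizing enzymes, reached 10 CPM together in 1 of 23 cells with Fezf2, P25, and in 4 of 36 without.

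A pair of measures was used for every other gene. The share of pairs is the percent of the 682 pairs of 1 cell with and 1 cell without Fezf2 in which the cell with Fezf2 had the higher count at equal depth, with ties divided equally. A share of 50% means no difference, and 65% or more and 35% or less were set as limits. The second measure is the fold of mean CPM over all 59 cells, with 1 CPM added to each mean and a limit of 2-fold. A fold can rest on 1 cell, and a gene found in few cells ties in many pairs and so tends to stay near 50%. A gene was measured when at least 8 P cells had a count. Of 9704 measured genes, 152 (1.57%) were past the limit as higher with Fezf2 by share of pairs and 10 (0.103%) as lower. By fold, 3319 genes (34.2%) were higher and 2847 (29.3%) lower. These counts moved with the summary used: with means trimmed by 20% at each end they were 2228 higher and 289 lower, and with pooled counts 2570 higher and 3288 lower. In a check added after the data were seen, on 54 named genes, leaving out the highest cell of one side or the other moved the fold by more than 1.5 times in 42. The median gene had a share of 50.8%, and 57.7% of genes were above 50%. Of the 152 genes, 128 were also at least 2-fold higher in mean, and all 10 low genes were at least 2-fold lower. In 6 of the 152 the mean was lower with Fezf2. The 152 were abundant genes, with a median mean level of 246 CPM against 25.6 CPM over all measured genes. The list counts below are to be read beside these shares over all genes.

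**Figure D3:**
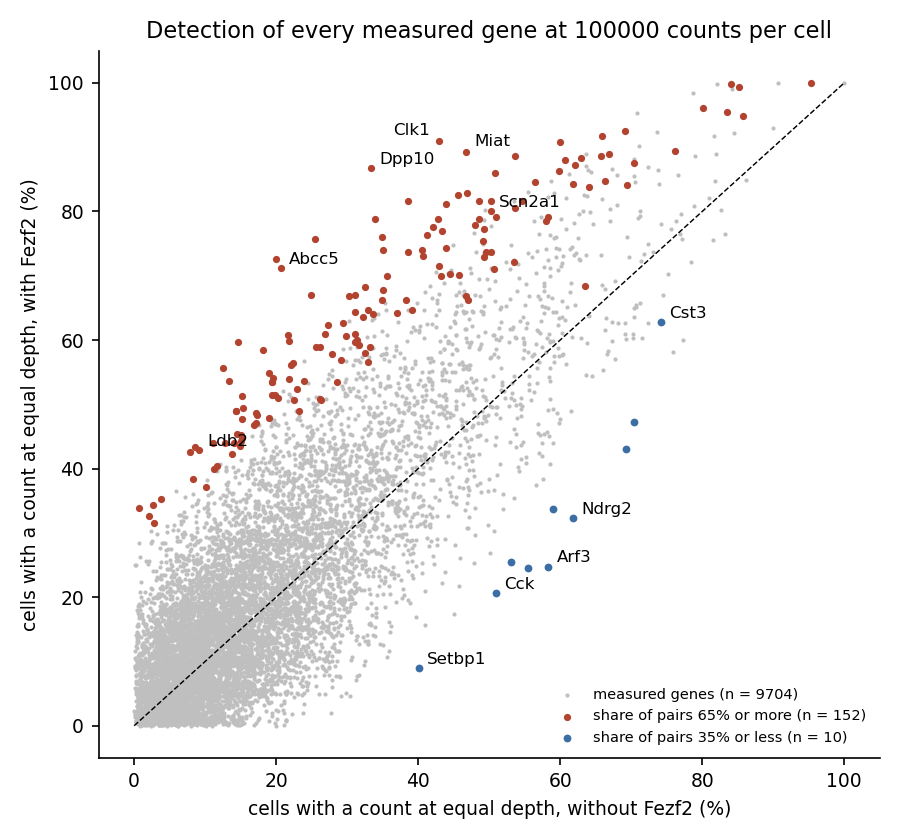
Expected percent of cells with at least 1 count at 100000 counts, in cells without Fezf2 (x) and with Fezf2 (y), for 9704 genes. Red points are the 152 genes with a share of pairs of 65% or more and blue points the 10 genes at 35% or less, with examples named. The red points lie above the diagonal and the blue points below it.

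The gene with the highest share was Dpp10, an auxiliary subunit of the A-type potassium channels that shape dendritic excitability. In the GENCODE annotation of GRCm38 it spans chromosome 1 from 123321471 to 124045559 on the minus strand. Its median was 101 CPM (0 to 6303) with Fezf2 and 0.418 CPM (0 to 3383) without. At equal depth it was found in 86.8% of cells with Fezf2 and 33.4% of cells without. The sides overlapped, since cells without Fezf2 included high values, but 81.1% of pairs had the Fezf2 cell higher and the mean was 966 against 137 CPM, a log2 fold of 2.81. P54 held 68.6% of the summed level of the cells without Fezf2, and without that cell the log2 fold was 4.42. The share lay between 80.2% and 83.5% when any 1 cell was left out. Detection was 85.7% in the cells with only 1 or 2 Fezf2 counts and 87.2% in those with 32 or more.

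Cck, the neuropeptide cholecystokinin that many cortical neurons make, was among the 10 low genes. It lies on chromosome 9 from 121489824 to 121495694 on the minus strand. Its median was 0.172 CPM (0 to 833) with Fezf2 and 1.90 CPM (0 to 31726) without. The mean was 60.6 against 1511 CPM, a log2 fold of -4.62, but P43 held 58.3% of the summed level of the cells without Fezf2, and without it the log2 fold was -3.40. Without P25, the highest cell with Fezf2, it was -5.84. At 10 CPM or more it was present in 4 of 23 and 16 of 36 cells. Detection at equal depth was 20.6% against 50.9%, and 0% in the cells with 1 or 2 Fezf2 counts. The share of pairs was 32.6%.

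For Dpp10, the gene with the highest share, and Cck, the projection neuron marker among the low genes, the 250 bases before the start are shown, from the RefSeq promoter table on GRCm38.p6, 5′ to 3′ on the gene's strand. Capitals mark matches on either strand to the motifs searched.
Dpp10, chr1:124045560-124045809, minus strand: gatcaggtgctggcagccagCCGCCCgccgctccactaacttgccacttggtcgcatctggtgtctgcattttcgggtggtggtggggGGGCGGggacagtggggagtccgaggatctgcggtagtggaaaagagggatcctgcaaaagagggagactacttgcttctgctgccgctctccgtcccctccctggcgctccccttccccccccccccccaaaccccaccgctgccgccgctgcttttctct
Cck, chr9:121495695-121495944, minus strand: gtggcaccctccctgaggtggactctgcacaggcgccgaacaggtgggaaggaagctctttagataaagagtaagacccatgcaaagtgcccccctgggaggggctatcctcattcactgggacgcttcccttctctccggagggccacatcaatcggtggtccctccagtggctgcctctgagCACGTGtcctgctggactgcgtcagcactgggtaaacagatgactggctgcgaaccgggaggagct
The motifs were the TATA box TATAAA, the GC box GGGCGG, the cyclic AMP response element TGACGTCA and the E-box CACGTG. Dpp10 had a GC box at 230 and 162 bases before its start, a motif held by 32.7% of 32851 promoters of this length. Cck had the E-box at 66 bases before its start, a motif held by 6.02%. Neither window holds TATAAA (12.4% of promoters) or TGACGTCA (1.55%). A match of letters is a description and not a binding site.

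After Dpp10, the genes with the highest shares and at least a 2-fold higher mean had varied roles. In each of them the lowest value on both sides was 0 CPM and the sides overlapped. Clk1, a kinase that phosphorylates splicing factors, had a median of 381 CPM (highest 3073) with Fezf2 and 0.221 CPM (highest 3529) without. Its share of pairs was 78.6%, with detection at equal depth of 91.0% against 42.9%. Miat, a long noncoding RNA of neurons, had a median of 119 CPM (highest 9291) against 0.339 CPM (highest 6215) and a share of 77.1%. Clk1 and Miat each had a count in 21 of 23 cells with Fezf2 and in 18 of 36 without. Srpk2, another kinase of splicing factors, had medians of 242 and 1.81 CPM and a share of 75.1%. Rbm26, an RNA-binding protein, had medians of 127 and 0 CPM and a share of 73.5%. These 3 protein-coding genes of RNA metabolism were picked out by eye, and no list of such genes was counted.

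Ap1g1, a subunit of the adaptor complex that sorts cargo from the Golgi, had a median of 51.2 CPM (highest 975) with Fezf2 and 0 CPM (highest 74.95) without. Its highest value without Fezf2 was not far above the median with it, and the mean was 187 against 6.36 CPM, a log2 fold of 4.67. Abcc5, an exporter of organic anions, had medians of 69.9 and 0 CPM, a share of 74.4% and detection of 71.2% against 20.7%. Nrcam, an adhesion molecule of axons and nodes of Ranvier, had medians of 225 and 0.117 CPM and a share of 74.8%. Sel1l, which works in the degradation of misfolded proteins of the endoplasmic reticulum, had medians of 71.7 and 0.713 CPM and a share of 75.1%. Its detection at equal depth was 92.8% in cells with 32 or more Fezf2 counts and 41.2% in those with 1 or 2. The log2 fold of Sel1l was 1.03, which was 0.59 without P53, the highest cell with Fezf2, and 2.88 without P59, a cell without Fezf2 that held 73.5% of its side's sum.

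Eml5, of a family of microtubule-binding proteins, had a median of 37.2 CPM (highest 2804) with Fezf2 and 0 CPM (highest 845) without, and a share of 76.9%. R3hdm1 was the most abundant of the 12, with medians of 990 and 44.2 CPM, means of 2630 and 1062 CPM (616 CPM without P68) and a share of 73.02%. Ssbp3 encodes a partner of the Ldb adaptor proteins that link transcription factors. Its median was 155 CPM (highest 1420) with Fezf2 and 0.297 CPM (highest 168) without, its log2 fold 4.61 and its share 74.8%. All 12 genes were on the same side of the 65% limit in each alternative that recomputed their share, including cells of 1000000 counts or more alone.

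Ldb2, an Ldb adaptor itself and a marker of subcerebral neurons (chromosome 5, 44472132 to 44799680, minus strand), had the highest share of pairs in the projection neuron lists. It reached 10 CPM in 9 of 23 cells with Fezf2 (39.1%, exact Clopper-Pearson interval 19.7% to 61.5%) and in 2 of 36 without (5.56%, 0.680% to 18.7%). These 95% intervals cover the draw of cells only. Among cells with 32 or more Fezf2 counts 8 of 16 reached it, and among those with 1 or 2 counts 1 of 7. The mean was 185 against 9.25 CPM, a log2 fold of 4.18. P40 held 60.5% of the sum of the cells with Fezf2 and P4 held 64.3% of that of the cells without. The log2 fold was 2.92 without P40. Without P4 the mean of the cells without Fezf2 was 3.40 CPM. The share of pairs was 66.9%, and 64.1% in cells of 1000000 counts or more, just inside the limit.

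Of 17 measured subcerebral genes, Ldb2 alone passed the 65% limit and none passed the 35% limit, with a median share of 51.8% beside 50.8% over all genes. A share above 50% was seen in 11 of the 17, where 57.7% of all genes were above it. By fold 8 were higher and 2 lower, beside 34.2% and 29.3% of all genes. Crym, a thyroid hormone-binding protein of these neurons, reached 10 CPM in 9 of 23 and 5 of 36 cells, with a share of 63.1%. Its mean went the other way, 44.2 against 90.6 CPM, a log2 fold of -1.02. It was 0.60 without P68, which held 69.2% of the sum of the cells without Fezf2, and -2.26 without P69, the highest cell with Fezf2. Bcl11b, the factor known to act downstream of Fezf2, reached 10 CPM in 10 of 23 and 9 of 36 cells, with a share of 56.6%. Its log2 fold of 0.48 turned to -0.15 without P55 and was 1.24 without P72. Sox5, a regulator of deep-layer identity, was at 10 CPM in 3 cells on each side with a share of 53.9%. Pcp4, a calmodulin-binding protein of deep layers, had a share of 44.9%, Etv1, a layer 5 factor, 48.3%, and the neurofilament gene Nefh 51.0%. The fold of Pcp4, Etv1 and Nefh changed sign when 1 cell was left out. At least 1 of Bcl11b, Crym and Ldb2 reached 10 CPM in 16 of 23 cells with Fezf2 and 12 of 36 without. At least 2 of them did in 11 of 23 and 3 of 36. The 10 CPM level is not at equal depth, and the 3 genes were chosen with earlier results of these data known. Pcp4 reached 10 CPM in 8 of 23 and 14 of 36.

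Ephb1, an axon guidance receptor, was rare but uneven. It had 1970 counts in 8 of 23 cells with Fezf2 and 8 counts in 3 of 36 cells without. The highest level was 255 CPM with Fezf2 and 0.369 CPM without. P53, a cell with 1 Fezf2 count, held 55.8% of the sum of its side, and without it the log2 fold was 3.31 in place of 4.35. Ephb1 reached 10 CPM in 2 of 23 cells with Fezf2, P19 and P53, and in 0 of 36 without. Without P53, P19 alone remained at that level. Most pairs tied at 0, so the share was 56.1%.

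**Figure D4:**
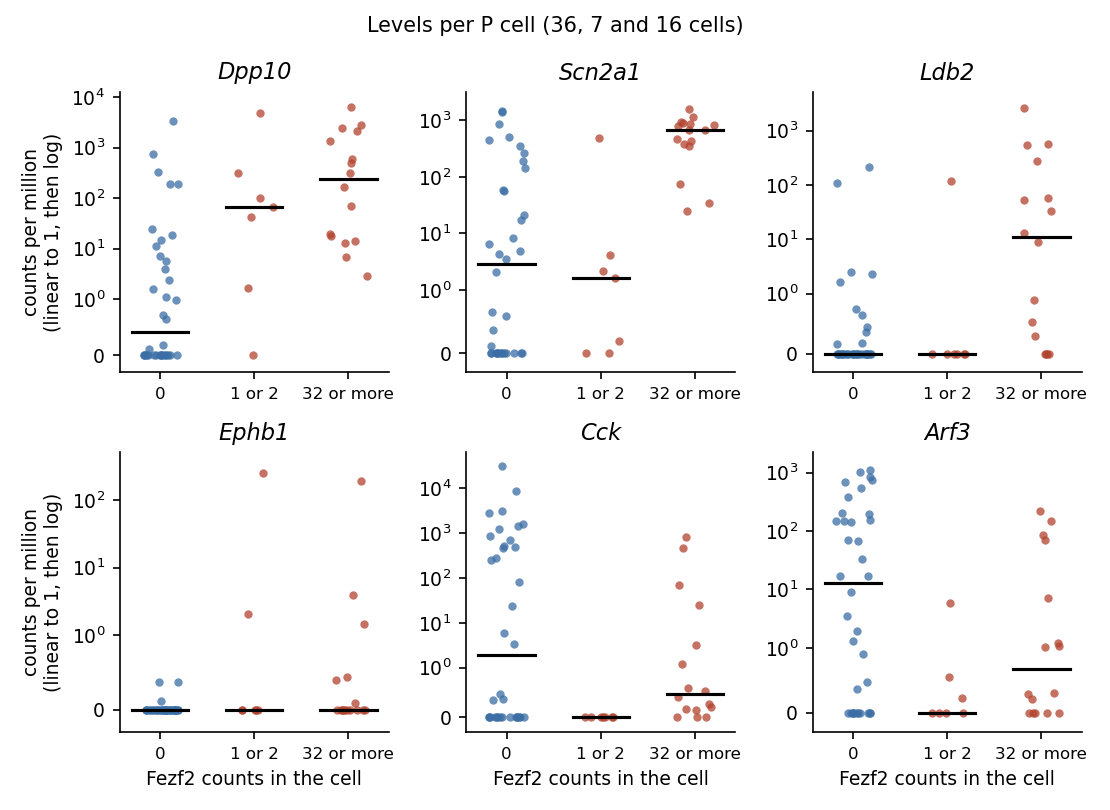
Level in CPM of 6 genes (linear up to 1, then log) in P cells with 0, 1 or 2, and 32 or more Fezf2 counts (36, 7 and 16 cells); points are cells and bars medians. Scn2a1 and Ldb2 have their highest medians in the cells with 32 or more counts, Dpp10 has a higher median in both groups with Fezf2 than in cells without, Ephb1 rests on few cells, and Cck and Arf3 have their highest medians in cells without Fezf2.

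Genes of layer 6 corticothalamic neurons lay mostly on the side of Fezf2, without any past the limit. Of 11 measured, 10 had a share above 50%, where 57.7% of all genes did, and the median was 55.4%. By fold 7 were higher and 2 lower, beside 34.2% and 29.3% of all genes. Foxp2, a forkhead factor, had a count in 20 of 23 and 19 of 36 cells, a median of 2.33 CPM (0 to 1198) against 0.125 CPM (0 to 521) and a share of 61.2%. Foxp2 detection at equal depth was 54.5% in cells with 1 or 2 Fezf2 counts and 37.3% in those with 30 or more. In cells without Fezf2 it was 23.35%. Foxp2 reached 10 CPM in 4 of 7 cells with 1 or 2 Fezf2 counts and in 5 of 16 with 30 or more. Garnl3 had the highest share of the list, 64.7%, with detection at equal depth of 44.3% against 17.9%. Zfpm2, a cofactor of GATA factors, was found at equal depth in 25.6% of cells with Fezf2 and 1.66% of cells without, with means of 79.6 and 0.143 CPM. Tle4, a co-repressor that works with Fezf2, had a share of 56.2%, and its log2 fold of 2.01 was 0.87 without P64 and 4.65 without P16. Tbr1, a regulator of corticothalamic fate, had 53.6%. The exception was Fam19a2, which encodes a secreted protein, with 39.5% and means of 2.11 and 446 CPM, the second of which was 98.1 CPM without P38.

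The count above 50% was the same in cells of greater depth and in matched cells. It was 10 of 11 in cells of 1000000 counts or more, where only 46.2% of all genes were above 50%, and 10 of 11 among cells matched on genes per cell. At least 1 of Foxp2, Tle4 and Tbr1 reached 10 CPM in 14 of 23 cells with Fezf2 and 14 of 36 without, a level that is not at equal depth. Unlike Foxp2, Tle4 and Tbr1 were detected less often at equal depth in cells with 1 or 2 Fezf2 counts. Tle4 had 21.3% there and 28.6% in cells with 30 or more, and Tbr1 had 2.47% and 40.4%. Garnl3, Zfpm2 and Fam19a2 were singled out after their values were seen.

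Genes of intratelencephalic neurons, which project within the cortex and include the callosal class, lay mostly on the other side. Of 18 measured, 3 had a share above 50%, where 57.7% of all genes did, and none was past a limit, with a median of 47.9%. By fold 3 were higher and 9 lower, beside 34.2% and 29.3% of all genes. Cux1 and Cux2, homeobox factors of the upper layers, had shares of 45.1% and 46.7%, and Rorb, a nuclear receptor of layer 4, had 47.1%. At least 1 of Cux1, Cux2 and Rorb reached 10 CPM in 4 of 23 cells with Fezf2 and 14 of 36 without. These counts are not at equal depth: 1 count made 43.6 CPM in P60, among the 4, and 29.2 CPM in P45, among the 14. Lhx2, a factor of upper-layer and progenitor cells chosen after its values were seen, had the lowest share, 42.6%, with means of 1.55 and 53.3 CPM (13.3 CPM without P38). Lmo4 went against the list at 58.2%, with a median of 257 CPM (0 to 6010) against 34.6 CPM (0 to 5023). Without thinning 11 of the 18 were above 50%, where 72.6% of all genes were. The 4 measured genes of layer 6b had a median share of 50.9%.

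**Figure D5:**
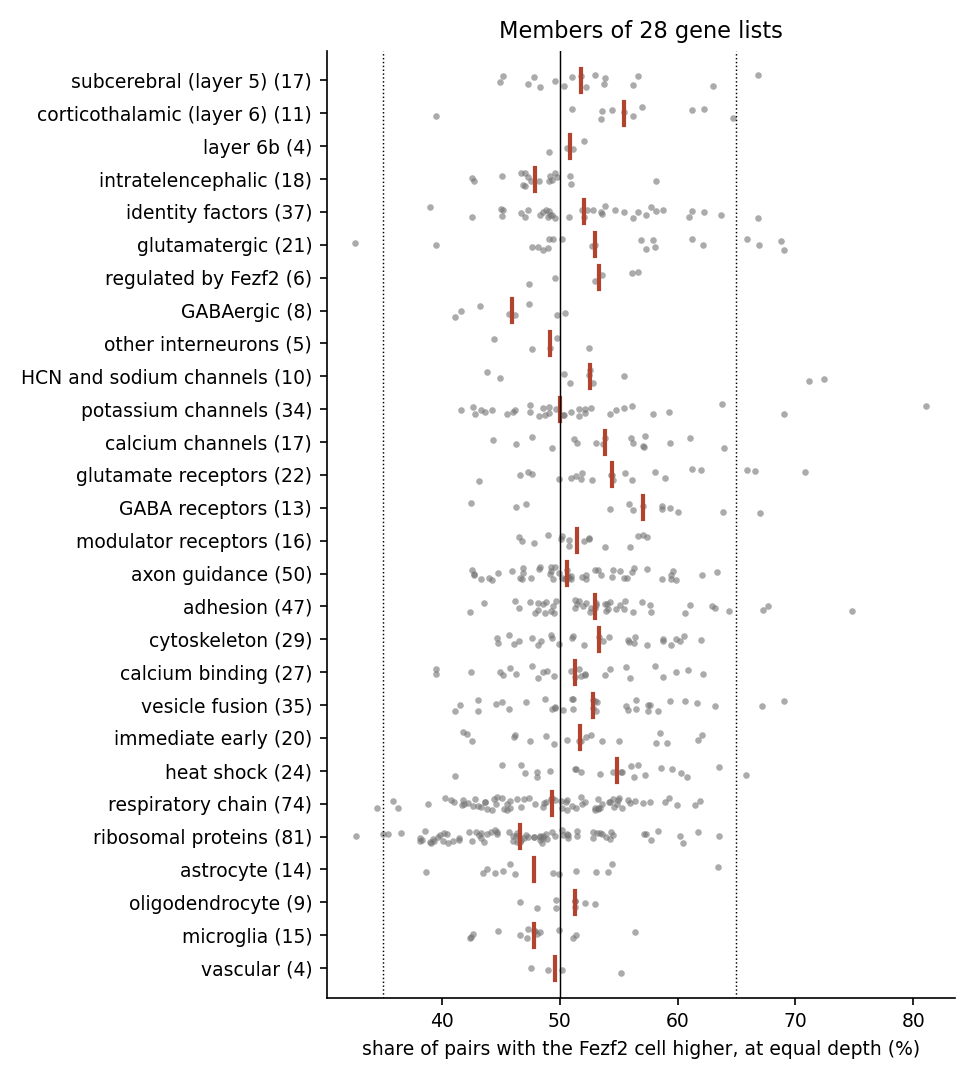
Share of pairs with the Fezf2 cell higher, at equal depth, for each measured member of 28 gene lists (points, the number of members in brackets) with the list median as a red bar. Dotted lines mark 35% and 65%; the corticothalamic and GABA receptor medians lie to the right of 50%, and the intratelencephalic, GABAergic and ribosomal protein medians to the left.

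The genes that Fezf2 is known to regulate in development include induced and repressed ones, so they have no common expected direction. Of the 6, 4 had a share above 50%, where 57.7% of all genes did. None was past a limit, and the median was 53.3%. Slc17a7 had 53.03% while its mean was lower with Fezf2, 126 against 251 CPM. Gad1, the gene described as repressed, had 47.4%, with a count in 10 of 23 and 17 of 36 cells, and 1 cell held most of the sum on each side. Its log2 fold of -0.76 was 2.04 without P67 and -4.83 without P42. Among 37 measured factors and co-repressors of projection neuron identity, Ldb2 alone passed the limit, with a median of 52.1%.

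Among 21 measured glutamatergic markers, 4 were past the limit as higher, Sv2b, Arpp21, Baiap2 and Gria1, and 1, Cck, as lower. The mean of Baiap2 was lower with Fezf2, 277 against 368 CPM, and P45 held 54.6% of the sum of the cells without it. Sv2b, a synaptic vesicle protein, had a median of 101 CPM (0 to 1105) with Fezf2 and 0 CPM (0 to 881) without, and a share of 69.04%. Arpp21, a phosphoprotein of pyramidal neurons, had medians of 1040 and 136 CPM and a share of 68.8%. In cells of 1000000 counts or more the share of Sv2b was 62.4%, inside the limit. Camk2a, the kinase of excitatory synapses, went the other way within the limits, with a share of 39.5% and means of 26.99 and 189 CPM. The median of the list was 53.03%, and Slc17a7 itself was near even.

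By share of pairs, Scn2a1 and Scn8a came next after Dpp10 in the ion channel lists. Scn2a1, the Nav1.2 pore of pyramidal axons, had a median of 426 CPM (0 to 1567) with Fezf2 and 2.85 CPM (0 to 1423) without, and a share of 72.5%. Its detection at equal depth was 99.3% in cells with 32 or more Fezf2 counts, 28.7% in those with 1 or 2 and 50.2% in cells without. Scn8a, the Nav1.6 pore, had medians of 310 and 8.42 CPM, a share of 71.2% and the corresponding detection of 94.3%, 47.8% and 54.7%. For both genes the cells with 1 or 2 counts lay below the cells with none. The other 8 measured genes of the HCN and sodium channel list were inside the limits.

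Of 34 measured potassium channel genes, Dpp10 and Kcna1 passed the limit as higher and none as lower, and the median was 49.99%. Kcna1, the Kv1.1 pore, had a median of 36.6 CPM (0 to 3409) against 0 CPM (0 to 803) and a share of 69.01%, with P63 holding 55.96% of the sum of the cells with Fezf2. Its log2 fold was 1.28 without P63 and 3.20 without P65. None of 17 measured calcium channel genes passed a limit, with 13 above 50%, where 57.7% of all genes were, and a median of 53.8%. The highest was Cacna1a, the P/Q-type pore, at 63.9%.

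Of 22 measured glutamate receptor genes 3 were past the limit as higher, Gria3, Gria2 and Gria1, which encode AMPA receptor subunits, and the median was 54.4%. Gria3 had a median of 783 CPM (0 to 5118) with Fezf2 and 6.46 CPM (0 to 4491) without, and a share of 70.9%. Gria2 was found in every cell with Fezf2 and in 32 of 36 without, with medians of 2290 and 362 CPM and a share of 66.6%. In cells of 1000000 counts or more Gria3 had 61.99% and Gria2 57.7%, so neither was past the limit there.

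GABA receptor genes had the highest median of the 28 lists, 57.1%, with 10 of 13 above 50%, where 57.7% of all genes were. Only Gabbr1, a subunit of the metabotropic GABA-B receptor, passed the limit, with a median of 88.5 CPM (0 to 5032) against 0.742 CPM (0 to 1753) and a share of 67.03%, which was 63.1% in cells of 1000000 counts or more. In the deeper cells the list median was 53.1%. Cacna1a was named for being the highest of its list.

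Nrcam, Chl1 and Cadm1, 3 of 47 measured adhesion genes, passed the limit as higher. Chl1, a relative of L1, had medians of 85.0 and 1.92 CPM and a share of 67.7%, and P40 held 44.6% of the sum of the cells with Fezf2. None of 50 axon guidance genes passed a limit. Among 35 measured vesicle fusion genes Sv2b and Syt7 passed, and Syt7, a calcium sensor of slow release, had medians of 216 and 11.8 CPM and a share of 67.2%. In cells of 1000000 counts or more Chl1 was at 59.6% and Syt7 at 60.6%. Dnaja2, a co-chaperone, was the 1 heat shock gene of 24 past the limit, at 65.9%. No gene of the immediate early, cytoskeleton, calcium binding, neuromodulator receptor or other interneuron lists passed a limit, of 20, 29, 27, 16 and 5 measured.

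Among the 10 genes lower with Fezf2, Arf3, a small GTPase of the Golgi, had the lowest share, 30.6%. Its median was 0.298 CPM (0 to 219) with Fezf2 and 12.9 CPM (0 to 1108) without, and its detection at equal depth 24.7% against 58.3%. The log2 fold was -2.91 and was -3.56 without P25, the highest cell with Fezf2, and -2.68 without P41. Dynll2, a dynein light chain, had medians of 1.83 and 35.2 CPM and a share of 33.9%. Setbp1, a nuclear protein that binds SET, was found at equal depth in 8.91% of cells with Fezf2 and 40.1% without, with a share of 33.5%. Gapdh, the glycolytic enzyme, had a share of 34.2% and means of only 12.1 and 29.3 CPM. Gapdh and ribosomal protein genes have near-identical copies in the genome, so their counts are uncertain.

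Ndrg2 and Cst3, which are both abundant in astrocytes as well as present in neurons, were in the low group. Ndrg2 had medians of 0.783 CPM (0 to 2442) and 12.1 CPM (0 to 108143) and a share of 31.95%, and P18 held 64.5% of the sum of the cells without Fezf2. Its log2 fold of -4.97 was -3.51 without P18 and -6.70 without P20. Cst3, a secreted protease inhibitor, had medians of 24.7 and 281 CPM and a share of 33.5%. Astrocyte markers were measured for 14 genes, of which 5 had a share above 50%, where 57.7% of all genes did. None passed a limit and the median was 47.8%. Their summed level had a median of 1160 CPM (0.656 to 17080) with Fezf2 and 1540 CPM (0 to 100848) without. By fold 10 of the 14 were lower and 2 higher, beside 29.3% and 34.2% of all genes. Aqp4 had a count in 3 and 4 cells and Gfap in 3 and 6. The part of astrocyte RNA in these differences was not tested.

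Markers of other cells were low in the median cell of both sides. Microglial markers summed to a median of 26.8 CPM (0.258 to 8015) with Fezf2 and 10.6 CPM (0 to 22643) without. The mean of that sum went the other way, 900 against 2561 CPM. Of 15 measured, 3 were above a share of 50%, where 57.7% of all genes were, and the list median was 47.8%. By fold 10 of the 15 were lower and 1 higher, beside 29.3% and 34.2% of all genes. GABAergic markers summed to a median of 9.53 CPM (0.570 to 4687) with Fezf2 and 33.9 CPM (0 to 17788) without. Of 8 measured, 1 was above 50%, where 57.7% of all genes were, with a median share of 46.0%. Gad2 had a share of 43.2%, while its mean was 168 against 61.3 CPM, with P25 holding 99.7% of the sum of the cells with Fezf2. Oligodendrocyte markers had a median share of 51.3% over 9 genes and vascular markers 49.6% over 4. Pecam1 was at 0 in every cell with Fezf2.

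Ribosomal protein genes were the largest list and lay mostly on the side without Fezf2. Of 81 measured, 24 had a share above 50%, where 57.7% of all genes did, and the median was 46.6%. Rpl36, at 32.7%, and Rpl39, at 34.99%, were past the limit as lower, and none was past it as higher. By fold 38 were lower and 4 higher, beside 29.3% and 34.2% of all genes. Their summed level had a median of 25933 CPM (5960 to 64862) with Fezf2 and 29621 CPM (805 to 207600) without, so the sides overlapped widely. Of 74 measured respiratory chain genes Cox6b1 alone was past the limit, as lower at 34.5%, and the list median was 49.3%. The low calls moved with the setting: Cox6b1 was past the limit in 6 of 15 recomputations and Rpl39 in 7.

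The balance of high and low genes moved with the cells that were compared, and the part of depth in this was not tested. In the 20 cells with and 21 without Fezf2 that had 1000000 counts or more, 92 genes were past the limit as higher and 70 as lower, in place of 152 and 10. Of the 152 genes 79 were among the 92, and all 10 low genes were among the 70. With only the cells of at least 30 Fezf2 counts set against those without, 457 genes were higher and 6 lower. With both conditions, 238 were higher and 57 lower. Without the cells with more than 10% Rn45s the counts were 117 and 27. When 22 cells on each side were matched on total counts, 178 genes were higher and 25 lower.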

How the data were processed

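Single P neurons were grouped by their titles, and the basecaller version came from the labels. The authors deposited raw read counts for 19685 genes. The submitters' processing notes name bcl2fastq 1.8.4 and 2.17, STAR 2.4.0 and the build mm10. How reads were counted, with which annotation and strand setting, is not given in the sources used here. Genes that overlap, lie antisense or have near-identical copies may therefore share or lose reads.

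P cells were divided by the raw count of Fezf2 (at least 1 against 0), and Fezf2 was left out of all results. Cells were thinned without replacement to 100000 counts 20 times (seed 135), and the share of pairs was averaged. Detection and genes per cell at equal depth are hypergeometric expectations. Shares of cells have exact Clopper-Pearson 95% intervals. Thinning left out P60 with Fezf2 and P35, P43, P45, P56 and P58 without it. Means of CPM used all 59 cells and a pseudocount of 1 CPM. Totals of 19802 to 16251918 set the precision, and because the RNA was amplified, reads are not independent molecules and intervals cover less than the full error. No 2 P libraries were identical, and their highest correlation was 0.469.

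Ranked by share of pairs, up to 12 genes a direction were named among those past 65% or 35% with a mean at least 2-fold different in that direction (only 10 were low), 21 markers whatever their values, and up to 2 members past the limit of each of 28 lists in each direction. Predicted genes and Rn45s were not ranked. Some genes under this rule are not reported here. Genes outside this rule are Garnl3, Zfpm2, Fam19a2, Lhx2, Cacna1a, Baiap2, Gria1, Cadm1, Aqp4, Gfap and Pecam1. The members and lists were chosen with earlier results of these data known. The computation was tested on simulated data. Work was done in Python 3.11.15 with numpy 2.4.6, scipy 1.17.1 and pandas 2.3.3.

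Alternatives were other thinning depths, no thinning, the newer basecaller version alone, stricter limits on Fezf2, cells of 1000000 counts or more, cells matched on totals, other filters on low genes, other totals, a pseudocount of 10 CPM, means trimmed by 20% and pooled counts. Those added after the data were seen were at least 30 Fezf2 counts, alone and with 1000000 counts, matching on genes per cell, and leaving out P cells with more GABAergic markers or with more than 10% Rn45s.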

Additional observations from a re-analysis of the deposited data

How the results depend on the processing

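No paired analysis was possible because no test was made and the cells share no replicate numbers across the sides. The counts of genes past the limits moved with the setting. For genes lower with Fezf2 by share of pairs, 10 became 4 with thinning to 50000 counts, 56 with thinning to 500000, 5 with at least 2 counts of Fezf2, 70 in cells of 1000000 counts or more, 25 matched on total counts, 6 with at least 30 counts of Fezf2, 57 with at least 30 counts and 1000000 totals, and 27 without cells of more than 10% Rn45s. For genes higher by share of pairs, 152 became 631 without thinning, 252 in the newer basecaller version alone, 326 with at least 2 counts of Fezf2, 454 with at least 10 CPM of Fezf2, 92 in cells of 1000000 counts or more, 457 with at least 30 counts of Fezf2 and 238 with both conditions. Folds beyond 2 became 1996 higher and 1579 lower when a count in 15 cells was required, where fewer genes are tested. With a pseudocount of 10 CPM 1895 genes were lower, and with trimmed means 289 beside 2228 higher. Apart from the filter on 15 cells, the cause was not tested. Over the 20 settings no named gene past a limit crossed 50%, and 17 of 34 were past it in each recomputation of the share. Some list medians changed side of 50%. Without thinning the ribosomal median went from 46.6% to 51.2% and the intratelencephalic median from 47.9% to 51.2%. The oligodendrocyte median fell from 51.3% to 47.0% with at least 30 Fezf2 counts and 1000000 totals. The corticothalamic median stayed above 50% (52.8% to 62.3%) and the GABAergic median below it (43.2% to 48.6%). Leaving out 1 cell took 5 of the 34 inside the limit, at most to 35.03% for Dynll2 and 36.15% for Rpl39 without P18, 35.22% for Gapdh without P17, 35.60% for Cox6b1 without P67 and 64.22% for Dnaja2 without P34. The median of genes per cell was higher with Fezf2 at each thinning depth. At 500000 counts the upper quartile was lower with Fezf2, 3109 against 3415 genes. A gene seen in few cells ties in many pairs and can pass a limit only if its counts lie mostly on 1 side.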

Other observations

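Some genes that separated the sides were also rare in F cells. At 100000 counts, 20 F cells could be read. Miat was found in 5.31% of F cells, 46.8% of P cells without Fezf2 and 89.3% of those with it. Sv2b was found in 0.545%, 35.03% and 67.7%, and Arpp21 in 23.4%, 70.3% and 87.5%. For these genes the P cells without Fezf2 lay between the F cells and the P cells with Fezf2. Abcc5 had another order, with 43.3% of F cells, 20.7% of P cells without Fezf2 and 71.2% of those with it. Arf3 was found in 36.2% of F cells, 58.3% of P cells without Fezf2 and 24.7% of those with it. These genes were picked after their values were seen, and no difference was tested.

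B3gat1, the enzyme that makes the HNK-1 carbohydrate of neural surfaces, was also picked after its values were seen. It had a share of pairs of 76.4% but means of only 122 and 96.7 CPM, so its fold did not reach the limit. Without P38 the second mean was 47.2 CPM. It had a count in 20 of 23 cells with Fezf2 and 11 of 36 without. At equal depth it was found in 72.6% and 20% of cells.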
